A study of Homo sapiens with 12 samples.

Results

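The genes described here encode the MHC class I molecule and the machinery that loads it with peptide: the chains HLA-B, HLA-C, HLA-E, HLA-F and HLA-G, the shared light chain B2M, the peptide transporter TAP1 and TAP2, and TAPBP, which encodes tapasin. They were read from every probe that the platform annotation assigned to these 9 genes, 15 of the 47323 probes on each array. A detection p tells how a probe's signal compares with that of negative control beads, and probes with a value under 0.01 in both replicates of 1 group or more were used. This left 14 of the 15 probes, and each gene was read from its brightest one, so that all 9 genes were among the 10970 genes tested.

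JIMT1 cells are an established human breast cancer line that carries HER2, lacks estrogen and progesterone receptors and resists trastuzumab. The study set culture models of these cells against xenografts in order to choose a model for drug screening. Total RNA of 6 groups of JIMT1 cells with 2 biological replicates each was read on 12 human BeadChip arrays. The labels name no drug and no genetic change for any group. PH7d and PH4d cells were grown for 7 and 4 days on polyHEMA, a coating that cells cannot attach to, so that they cling to each other. MG7d and MG4d cells were grown for 7 and 4 days on top of Matrigel, a gel of basement membrane proteins. The xenografts were tumors of JIMT1 cells mixed with Matrigel and placed in fat pads of the BALB/C-nude strain for 43 days. The 2D7d cells were grown as a monolayer for 7 days. Cultures on Matrigel received less serum and were freed from the gel with the protease Dispase, which cannot be told apart here from growth on the gel. The nude mouse lacks mature T cells but keeps other leukocytes and its own stroma, so a xenograft holds mouse cells beside JIMT1 cells.

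MHC class I molecules present peptides from inside the cell on its surface. Immunoproteasome and proteasome cut proteins into peptides, the TAP1-TAP2 transporter pumps these into the endoplasmic reticulum, tapasin holds an empty class I molecule at the transporter, and the heavy chain folds with B2M around a fitting peptide. HLA-B and HLA-C are classical chains that present to CD8+ T cells and bind receptors of natural killer cells, whereas HLA-E, HLA-F and HLA-G are non-classical chains with fewer alleles. Interferons and NF-kB are known to induce these genes, through short elements upstream of their start sites that are bound by interferon regulatory factors, by NF-kB and by a complex that contains RFX factors, NF-Y and NLRC5.

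The 250 bases upstream of the start site were looked up for the member genes in the RefSeq promoter table (build GRCh38.p14), which held 8 of the 9 genes in 11 entries. The elements searched, on both strands, were the core of the interferon-stimulated response element (GAAA and GAAA with any 2 bases between them), an NF-kB element (GGGGA and TCCC with any 1 base between them) and the Y box bound by NF-Y (CTGATTGG). The interferon element was present in HLA-F, B2M, TAP1, TAP2 and TAPBP, 5 of the 8 genes, against 3.02% of the 35116 promoters in the table. The Y box was present in HLA-B, HLA-C, HLA-F, HLA-G and B2M, also 5 genes, against 3.81% of all promoters, and its first base lay 52 to 57 bases before the start site in each. The NF-kB element was present in HLA-B, against 0.367% of all promoters, where the matches on the 2 strands overlap. The matches of the interferon element overlap each other in B2M, TAP1 and TAPBP. A gene was counted if any of its entries matched, whereas the percentages are shares of single entries. HLA-G and TAP1 have several entries, of which only 1 each matched. A match describes the letters of the window and is no evidence of binding. The search took exact letters only, so an element with other letters is missed. A gene without a match, such as HLA-B for the interferon element, may still hold one. The sequences of 5 genes are shown 5′ to 3′ on the strand of the gene, with the matches in capitals. These genes span the patterns below. HLA-B had the widest range of levels, and HLA-F followed a like pattern with partly other matches. B2M was the member that was not lower in Matrigel, and TAP1 and TAP2 form the transporter. For TAP1 the more upstream of 2 entries is given.
HLA-B (chr6:31357180-31357429, minus strand): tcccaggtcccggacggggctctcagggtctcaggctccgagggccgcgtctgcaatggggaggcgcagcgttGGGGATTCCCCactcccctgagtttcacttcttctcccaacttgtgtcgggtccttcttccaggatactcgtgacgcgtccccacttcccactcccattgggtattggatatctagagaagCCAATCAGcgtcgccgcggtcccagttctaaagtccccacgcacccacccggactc
HLA-F (chr6:29723184-29723433, plus strand): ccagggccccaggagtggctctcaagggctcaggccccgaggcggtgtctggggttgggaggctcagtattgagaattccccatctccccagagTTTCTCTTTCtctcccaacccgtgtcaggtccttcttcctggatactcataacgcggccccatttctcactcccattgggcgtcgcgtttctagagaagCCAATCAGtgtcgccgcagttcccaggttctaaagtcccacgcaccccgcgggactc
B2M (chr15:44711267-44711516, plus strand): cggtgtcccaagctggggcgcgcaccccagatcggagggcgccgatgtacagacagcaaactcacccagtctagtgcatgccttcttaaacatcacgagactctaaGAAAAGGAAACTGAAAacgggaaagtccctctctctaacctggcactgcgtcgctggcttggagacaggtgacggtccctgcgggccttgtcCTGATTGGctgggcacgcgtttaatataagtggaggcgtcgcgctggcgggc
TAP1 (chr6:32853705-32853954, minus strand): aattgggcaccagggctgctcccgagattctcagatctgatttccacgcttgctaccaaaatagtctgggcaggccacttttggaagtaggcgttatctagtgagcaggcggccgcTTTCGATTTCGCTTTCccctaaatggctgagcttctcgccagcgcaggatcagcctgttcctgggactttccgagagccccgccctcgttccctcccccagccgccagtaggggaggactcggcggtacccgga
TAP2 (chr6:32838740-32838989, minus strand): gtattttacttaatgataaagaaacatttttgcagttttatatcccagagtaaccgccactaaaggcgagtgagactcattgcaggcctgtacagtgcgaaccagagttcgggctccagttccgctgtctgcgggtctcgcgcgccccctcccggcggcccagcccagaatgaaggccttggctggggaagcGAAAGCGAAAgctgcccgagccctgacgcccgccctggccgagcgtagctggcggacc

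The arrays were alike in overall signal, with median intensities of 95.1 to 107, and detected 13952 to 18430 probes. The 6 markers of JIMT1 identity (ERBB2, KRT8, KRT18, KRT19, EPCAM and CDH1) were detected on all 12 arrays. The replicates lay far apart on polyHEMA, where 3345 genes in PH7d and 4193 in PH4d differed at least 2-fold between the 2 arrays, against 15 to 216 genes in the other groups. All comparisons came from 1 limma fit over the 12 arrays, and a gene was called at a Benjamini-Hochberg adjusted p under 0.05 and a difference of at least 2-fold. The p-values rest on the spread between replicate arrays, pooled for each gene over the 6 groups. They do not reflect the spread of the groups compared alone. In bulk RNA, fewer cells expressing a gene cannot be told apart from less RNA per cell.

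Among the class I genes this split was seen in PH4d. There 6 of the 9 genes were at least 2-fold apart and 8 of 9 were higher on replicate 2, with a median difference of 1.12 on the log2 scale. The largest differences were those of HLA-G (2.43), HLA-F (2.17) and HLA-B (1.81). In PH7d no member was 2-fold apart and the median difference was 0.28, smaller than that of all genes (0.69). The medians were 0.19 in MG7d, 0.12 in MG4d, 0.24 in the xenografts and 0.26 in 2D7d. In 2D7d 7 of the 9 members were higher on replicate 2. PH4d values therefore rest on 1 low and 1 high array for most chains, and for the heavy chains the PH4d values are also given without each PH4d array.

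**Figure D1:**
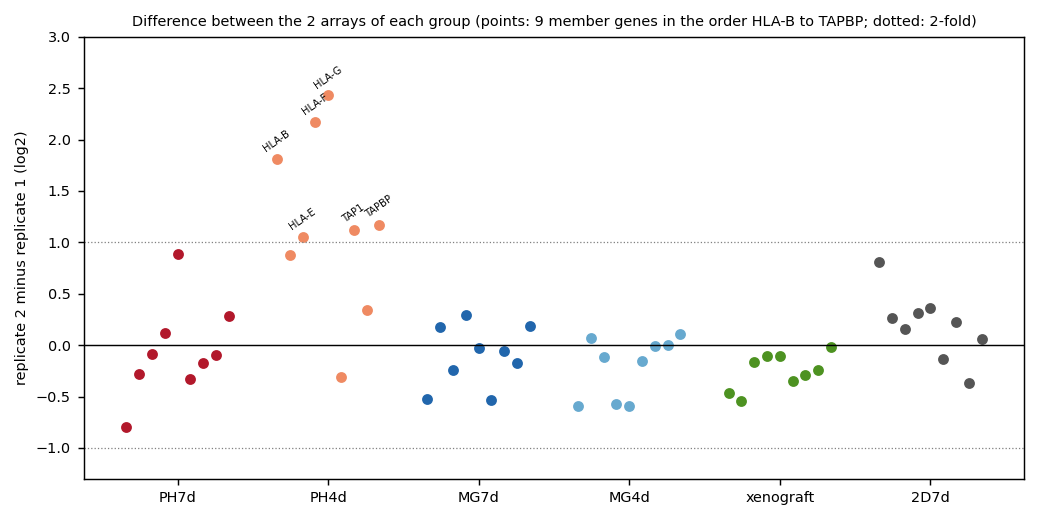
Difference between replicate 2 and replicate 1 on the log2 scale for each of the 9 member genes (points, in the order HLA-B, HLA-C, HLA-E, HLA-F, HLA-G, B2M, TAP1, TAP2, TAPBP) in the 6 groups, with dotted lines at 2-fold. The 6 genes past 2-fold, which are named, all lie in PH4d, and the highest is HLA-G at 2.43.

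The class I genes were highest on polyHEMA, and most were lowest in Matrigel. HLA-B, the classical chain with the widest range, had log2 levels of 14.14 and 13.34 in PH7d, 11.22 and 13.03 in PH4d, 7.67 and 7.14 in MG7d, 6.22 and 5.63 in MG4d, 10.76 and 10.29 in the xenografts and 7.81 and 8.62 in 2D7d. No 2 groups overlapped, and the order ran from PH7d through PH4d, xenograft, 2D7d and MG7d down to MG4d. Before normalization the same probe gave intensities of 13870 and 11348 in PH7d, 156 and 123 in MG4d and 258 and 392 in 2D7d, and it was detected on 1 of the 2 MG4d arrays. HLA-B was 46-fold higher in PH7d than in 2D7d (log2 fold change 5.52 ± 0.58 SE, adjusted p = 0.00143) and 15-fold higher in PH4d (3.91 ± 0.58, adjusted p = 0.00715). It was also 4.96-fold higher in the xenografts (2.31 ± 0.58, adjusted p = 0.024) and 4.89-fold lower in MG4d (-2.29 ± 0.58, adjusted p = 0.0291). In MG7d the difference from 2D7d, -0.81 ± 0.58, did not pass (adjusted p = 0.267). The PH4d value of HLA-B was 4.81 without PH4d replicate 1 and 3.01 without PH4d replicate 2, and its call was lost without 2D7d replicate 1 (3.5, adjusted p = 0.0813). The MG4d call was also lost with the authors' processed values (-0.96, adjusted p = 0.195), without background correction (-1.47, adjusted p = 0.0623) and without a detection filter (adjusted p = 0.052). The xenograft and MG4d calls were lost without any 1 of their 4 arrays (adjusted p of 0.0907 to 0.135 and of 0.0881 to 0.18).

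**Figure D2:**
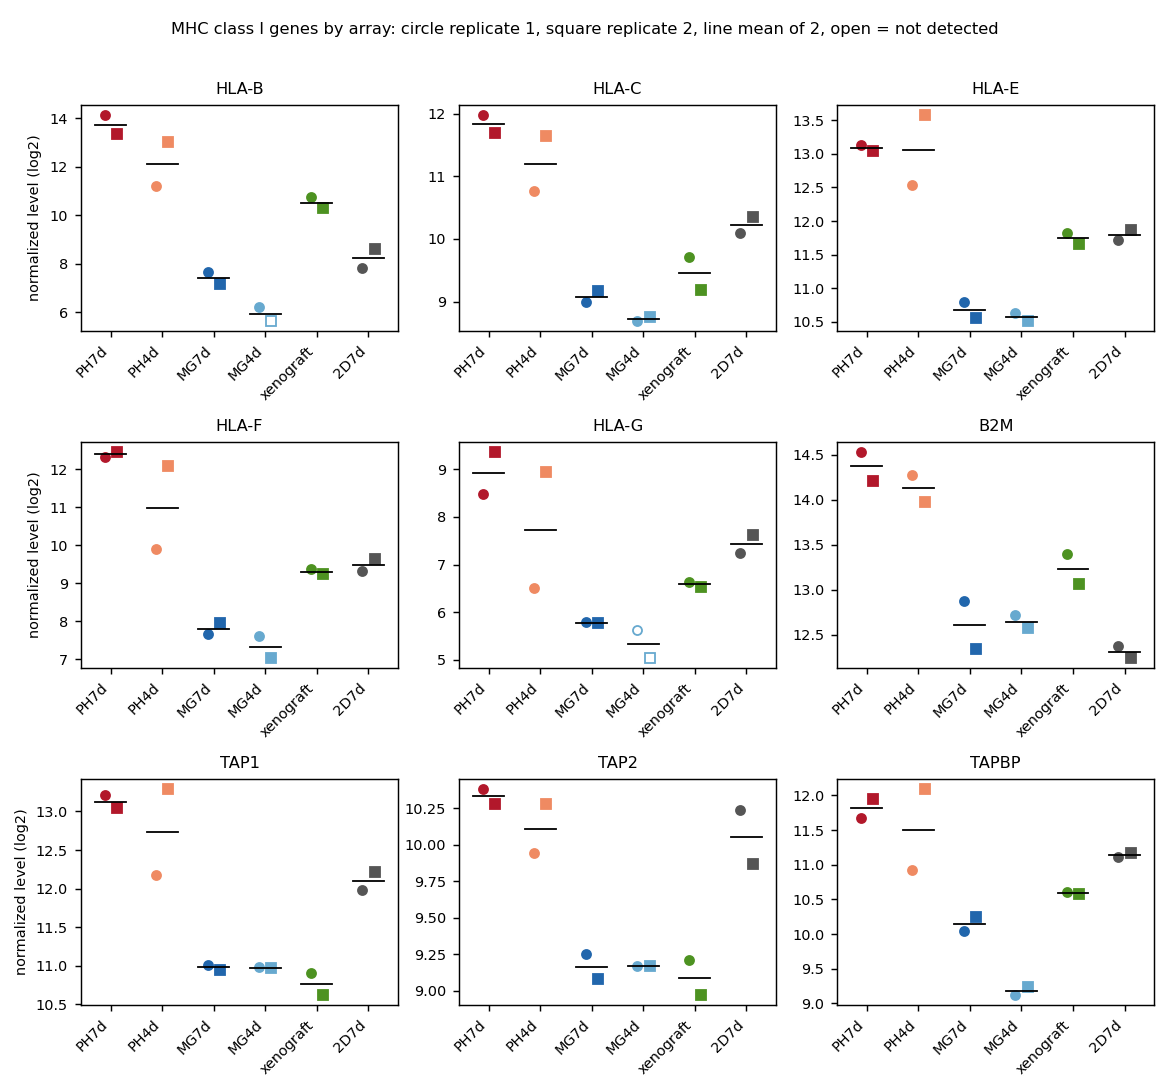
Normalized log2 level of the 9 member genes on each array, by group from PH7d to 2D7d, with circles for replicate 1, squares for replicate 2, lines for the mean of 2 and open symbols where the probe was not detected. HLA-B runs from 14.14 in PH7d to 5.63 in MG4d, while B2M in Matrigel (12.34 to 12.87) overlaps 2D7d (12.24 and 12.37).

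HLA-C, the second classical chain on the array, had levels of 11.98 and 11.70 in PH7d, 10.76 and 11.64 in PH4d, 8.99 and 9.17 in MG7d, 8.69 and 8.75 in MG4d, 9.72 and 9.18 in the xenografts and 10.09 and 10.35 in 2D7d. Again no 2 groups overlapped, but unlike HLA-B the xenografts lay below 2D7d. HLA-C was 3.07-fold higher in PH7d than in 2D7d (1.62 ± 0.32, adjusted p = 0.0197). It was 2.20-fold lower in MG7d (-1.14 ± 0.32, adjusted p = 0.0415) and 2.82-fold lower in MG4d (-1.50 ± 0.32, adjusted p = 0.0207). The PH4d difference of 0.98 ± 0.32 (adjusted p = 0.123, but 1.42 and 0.0364 without PH4d replicate 1 and 0.54 without replicate 2) and the xenograft difference of -0.77 ± 0.32 (adjusted p = 0.0797) did not pass. The PH7d call was lost without PH7d replicate 1 or either 2D7d array (adjusted p of 0.0931 to 0.14) and with array weights (0.102), and the Matrigel calls without any 1 array (0.0877 to 0.213 over both). The MG7d call of HLA-C was also lost with the authors' processed values (-0.93, under 2-fold), with median scaling (adjusted p = 0.0523) and without a detection filter (adjusted p = 0.0571). Another probe annotated to HLA-C was not detected on any array (detection p of 0.295 to 0.999) and gives no level.

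HLA-E, a non-classical chain that presents leader peptides of other class I chains to natural killer cells, was detected on all arrays. Its levels were 13.13 and 13.05 in PH7d, 12.53 and 13.58 in PH4d, 10.80 and 10.56 in MG7d, 10.63 and 10.51 in MG4d, 11.82 and 11.66 in the xenografts and 11.71 and 11.86 in 2D7d. The 12 arrays formed 3 levels, with polyHEMA above, the xenografts and 2D7d overlapping in the middle, and both Matrigel groups overlapping below. HLA-E was 2.47-fold higher in PH7d than in 2D7d (1.30 ± 0.32, adjusted p = 0.0445), 2.16-fold lower in MG7d (-1.11 ± 0.32, adjusted p = 0.0433) and 2.32-fold lower in MG4d (-1.22 ± 0.32, adjusted p = 0.0324). In PH4d it missed the threshold (1.27 ± 0.32, adjusted p = 0.0628), and without PH4d replicate 1, the lower array, it passed (1.79, adjusted p = 0.00591), against 0.74 without replicate 2. The xenograft difference was -0.04 ± 0.32 (adjusted p = 0.919). The PH7d call was lost without PH7d replicate 1 or either 2D7d array (adjusted p of 0.183 to 0.213), and the Matrigel calls without any 1 array (0.103 to 0.213). The PH7d call of HLA-E was also lost with median scaling (adjusted p = 0.11), without a detection filter (0.0545) and with array weights (0.105), and the MG7d call without a detection filter (0.0604).

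HLA-F, a non-classical chain that can reach the surface without peptide, had levels of 12.33 and 12.45 in PH7d, 9.90 and 12.07 in PH4d, 7.65 and 7.94 in MG7d, 7.60 and 7.03 in MG4d, 9.36 and 9.25 in the xenografts and 9.32 and 9.64 in 2D7d. PH4d replicate 1 lay near 2D7d and PH4d replicate 2 near PH7d, and the xenografts overlapped 2D7d. HLA-F was 7.50-fold higher in PH7d than in 2D7d (2.91 ± 0.57, adjusted p = 0.018) and 4.48-fold lower in MG4d (-2.16 ± 0.57, adjusted p = 0.0319). In MG7d it narrowly missed the threshold (-1.68 ± 0.57, adjusted p = 0.054). In PH4d the brightest probe gave 1.51 ± 0.57 (adjusted p = 0.16), or 2.59 (adjusted p = 0.0039) without PH4d replicate 1 and 0.42 without replicate 2, whereas its other probe, detected on all arrays and tighter between replicates, gave 2.24 ± 0.43 (adjusted p = 0.0216 over all kept probes). That other probe gave 2.87 ± 0.43 in PH7d, -1.33 ± 0.43 in MG7d, -2.38 ± 0.43 in MG4d and 0.06 ± 0.43 in the xenografts. The PH7d call of HLA-F was lost without PH7d replicate 1 or either 2D7d array (adjusted p of 0.076 to 0.129), and the MG4d call without any 1 array (0.101 to 0.175), with the authors' processed values (-1.37) and without a detection filter (alternatives up to an adjusted p of 0.0849).

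HLA-G, a non-classical chain known from the placenta and from some tumors, was the member that failed detection in a whole group. Its levels were 8.47 and 9.36 in PH7d, 6.51 and 8.94 in PH4d, 5.79 and 5.77 in MG7d, 5.63 and 5.04 in MG4d, 6.64 and 6.53 in the xenografts and 7.25 and 7.61 in 2D7d. It was not detected on either MG4d array, and the 2 PH4d arrays lay on both sides of 2D7d. HLA-G was at least 3.11-fold lower in MG4d than in 2D7d (adjusted p = 0.0461), a bound against the lowest detected signal of the MG4d arrays. This call was lost without any 1 array (adjusted p of 0.116 to 0.209) and under 5 of the alternatives, with a log2 value of -0.65 from the authors' processed values. The differences of 1.48 ± 0.65 in PH7d (adjusted p = 0.197), 0.29 ± 0.65 in PH4d (0.767, with 1.51 without PH4d replicate 1 and -0.92 without replicate 2), -1.65 ± 0.65 in MG7d (0.0763) and -0.84 ± 0.65 in the xenografts (0.295) did not pass. The class I chains are close copies of each other, probe sequences were not used here, and each chain's probe may also read RNA of another chain.

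B2M, the light chain that all class I molecules share, behaved unlike the chains in Matrigel. Its levels were 14.53 and 14.21 in PH7d, 14.28 and 13.97 in PH4d, 12.87 and 12.34 in MG7d, 12.72 and 12.57 in MG4d, 13.40 and 13.06 in the xenografts and 12.37 and 12.24 in 2D7d. The polyHEMA groups overlapped each other above the rest, the xenografts stood alone, and MG7d overlapped both MG4d and 2D7d. B2M was 4.19-fold higher in PH7d than in 2D7d (2.07 ± 0.27, adjusted p = 0.00323) and 3.54-fold higher in PH4d (1.82 ± 0.27, adjusted p = 0.00701). In Matrigel it differed from 2D7d by 0.30 ± 0.27 in MG7d (adjusted p = 0.378) and by 0.34 ± 0.27 in MG4d (adjusted p = 0.314). In the xenografts the difference of 0.92 ± 0.27 had an adjusted p of 0.0324 but stayed under 2-fold, at 1.90-fold. The other B2M probe gave 2.33 ± 0.25 in PH7d, 1.83 ± 0.25 in PH4d, 0.31 ± 0.25 in MG7d, 0.26 ± 0.25 in MG4d and 1.13 ± 0.25 in the xenografts, where it passed (adjusted p = 0.0177 over all kept probes). The PH7d call held without each array in turn (adjusted p of 0.00401 to 0.0353), while the PH4d call was lost without either 2D7d array (0.0639 and 0.0561) and with array weights (0.161).

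TAP1, the transporter subunit whose gene lies beside PSMB9 in the class II region, had levels of 13.21 and 13.04 in PH7d, 12.17 and 13.29 in PH4d, 11.01 and 10.95 in MG7d, 10.98 and 10.97 in MG4d, 10.91 and 10.62 in the xenografts and 11.98 and 12.21 in 2D7d. The Matrigel arrays lay within 0.06 of each other, the xenografts were lowest, and PH4d replicate 1 fell among the 2D7d arrays. TAP1 was 2.17-fold lower in MG7d than in 2D7d (-1.12 ± 0.34, adjusted p = 0.0452), 2.18-fold lower in MG4d (-1.12 ± 0.34, adjusted p = 0.0431) and 2.52-fold lower in the xenografts (-1.33 ± 0.34, adjusted p = 0.0248). On polyHEMA the differences of 1.03 ± 0.34 in PH7d (adjusted p = 0.104) and 0.63 ± 0.34 in PH4d (adjusted p = 0.264) did not pass. The PH4d difference was 1.19 without PH4d replicate 1 and 0.08 without PH4d replicate 2. The Matrigel and xenograft calls were lost without any 1 array (adjusted p of 0.111 to 0.216 and of 0.0807 to 0.146). The Matrigel calls of TAP1 were also lost without a detection filter (0.0667 in MG7d and 0.0619 in MG4d), and that in MG4d with median scaling.

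TAP2, the partner subunit of the transporter, was read differently by its 2 probes. Its brightest probe had levels of 10.38 and 10.28 in PH7d, 9.94 and 10.28 in PH4d, 9.25 and 9.08 in MG7d, 9.17 and 9.17 in MG4d, 9.21 and 8.97 in the xenografts and 10.24 and 9.87 in 2D7d. The arrays formed 2 levels, with polyHEMA and 2D7d together above and Matrigel and xenografts together below. The differences from 2D7d of -0.89 ± 0.23 in MG7d (adjusted p = 0.0373), -0.88 ± 0.23 in MG4d (adjusted p = 0.0329) and -0.96 ± 0.23 in the xenografts (adjusted p = 0.0229) passed the p threshold but stayed under 2-fold. Its other probe, annotated to another transcript, had levels of 7.88 and 9.14 in PH7d, 6.89 and 9.12 in PH4d, 5.44 and 6.65 in MG7d, 6.53 and 7.00 in MG4d, 6.61 and 6.12 in the xenografts and 9.08 and 9.36 in 2D7d. This probe was highest in 2D7d and on replicate 2 of both polyHEMA groups, and it disagreed with the first in size and, on polyHEMA, in sign. It was lower than in 2D7d in MG7d (-3.17 ± 0.70, adjusted p = 0.0303), in MG4d (-2.45 ± 0.70, adjusted p = 0.0408) and in the xenografts (-2.85 ± 0.70, adjusted p = 0.0238). On polyHEMA it gave -0.71 ± 0.70 in PH7d (adjusted p = 0.523) and -1.22 ± 0.70 in PH4d (adjusted p = 0.305), against 0.28 ± 0.23 and 0.06 ± 0.23 from the brighter probe. With the mean of both probes TAP2 was called lower in MG7d (-2.03, adjusted p = 0.0248).

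**Figure D3:**
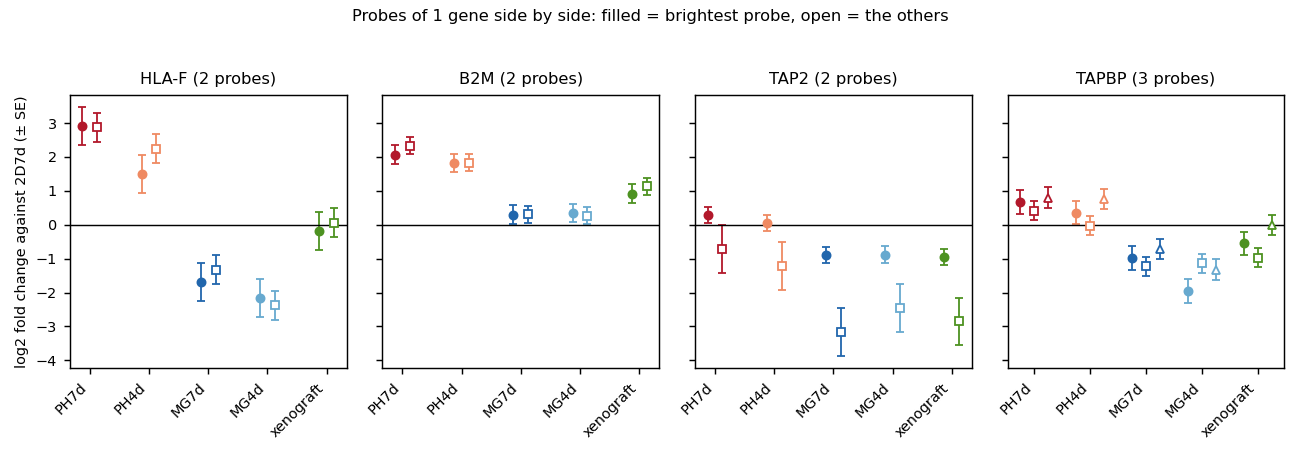
Log2 fold change against 2D7d (± SE) for each kept probe of the 4 member genes with several kept probes, by group, with the brightest probe filled and the others open. The probes of HLA-F and B2M lie close together, whereas those of TAP2 lie 1 or more apart in most groups, with MG7d at -0.89 and -3.17.

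TAPBP, which encodes the chaperone tapasin, had levels of 11.68 and 11.95 in PH7d, 10.92 and 12.09 in PH4d, 10.05 and 10.24 in MG7d, 9.12 and 9.23 in MG4d, 10.60 and 10.58 in the xenografts and 11.11 and 11.17 in 2D7d. The order below 2D7d was xenograft, MG7d and MG4d with no overlap, and the 2D7d arrays lay between the 2 PH4d arrays. TAPBP was 3.90-fold lower in MG4d than in 2D7d (-1.96 ± 0.34, adjusted p = 0.0151), a call that was lost without any 1 array (0.0814 to 0.123). It missed the threshold in MG7d (-0.99 ± 0.34, adjusted p = 0.0566), the xenografts (-0.55 ± 0.34, adjusted p = 0.203), PH7d (0.67 ± 0.34, adjusted p = 0.247) and PH4d (0.36 ± 0.34, adjusted p = 0.483). Of its other 2 probes, each annotated to another transcript, 1 passed in both Matrigel groups (-1.22 ± 0.28 in MG7d, adjusted p = 0.0316, and -1.13 ± 0.28 in MG4d, adjusted p = 0.0281). The other passed in MG4d (-1.32 ± 0.30, adjusted p = 0.0253) and gave 0.00 ± 0.30 in the xenografts.

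Counted over the members, 5 of the 9 genes were called higher in PH7d than in 2D7d, namely HLA-B, HLA-C, HLA-E, HLA-F and B2M, against 3.87% of all genes tested (2.36% were lower). All 9 log2 fold changes were above 0 and their median was 1.48, against 0.05 over all genes. In PH4d 2 genes were called higher, HLA-B and B2M, against 2.58% of all genes (1.84% lower), with a median of 0.98. With polyHEMA arrays of 1 replicate alone the number of all genes called also rose, so member counts from those fits are not given. With 1 array left out, HLA-B ran from 5.12 to 5.93 in PH7d and from 3.01 to 4.81 in PH4d. HLA-G ran from 1.04 to 1.93 in PH7d and from -0.92 to 1.51 in PH4d. Without PH7d replicate 1 or either 2D7d array the PH7d count was 2. The PH4d count was 0 without 2D7d replicate 1, 1 without 2D7d replicate 2 and 6 without PH4d replicate 1. The endothelial marker PECAM1 was also higher on polyHEMA (1.64 ± 0.31 in PH7d, adjusted p = 0.0161, and 1.82 ± 0.31 in PH4d, adjusted p = 0.0128). VWF was detected on no array and CDH5 on 2. These were cultures of the JIMT1 line, and what the PECAM1 signal reflects was not tested.

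In Matrigel the direction was the opposite for every member but B2M. In MG7d 3 genes were called lower, HLA-C, HLA-E and TAP1, against 10.3% of all genes (10.8% higher), with a median of -1.11 over the 9. In MG4d 7 genes were called lower, the 5 chains, TAP1 and TAPBP, against 11.5% of all genes (10.2% higher), with a median of -1.50. No member was called higher in either. All of these calls were lost when any 1 of the 4 arrays compared was left out, and so were nearly all calls over all genes in these comparisons, of which 0 to 5 were left. The JIMT1 marker ERBB2 was also lower in MG4d (-1.37 ± 0.23, adjusted p = 0.0136), and the summed linear level of the 6 JIMT1 markers was 46135 and 48123 in MG7d, 34469 and 40320 in MG4d and 54086 and 56499 in 2D7d. Its part in the Matrigel results was not tested.

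In the xenografts the members split. HLA-B was called higher and TAP1 lower than in 2D7d, 1 gene each, against 16.4% of all genes higher and 14.7% lower, and the median over the 9 was -0.55. Both shares of all genes were larger than the member shares. Among 17 markers of fibroblasts, endothelium, leukocytes and erythroid cells, the xenograft arrays detected 7 and 8 and the 2D7d arrays 3 and 5, with summed linear levels of 1570 and 1755 in the xenografts and 964 and 1097 in 2D7d. The sums were 1452 and 1544 in PH7d, 1209 and 1793 in PH4d, 1224 and 1176 in MG7d and 1058 and 1062 in MG4d. The sum therefore did not set the xenografts apart from the polyHEMA cultures. DCN (at least 3.15-fold), LUM (at least 1.69-fold), AIF1 (4.21-fold) and CD68 (2.17-fold) were higher and CD14 was lower (-1.50 ± 0.52, adjusted p = 0.0483). COL1A1 (0.40 ± 0.33, adjusted p = 0.329) and PECAM1 (-0.25 ± 0.31, adjusted p = 0.511) were not called. No probe of COL1A2 or COL3A1 was detected on more than 1 array. DCN, LUM and AIF1 were detected on both arrays of the xenografts alone and entered the test through that group. PTPRC, CD3E, MS4A1, PDGFRB, VWF, HBB and HBA1 were not detected on any array. The part of other cells, and of mouse RNA bound by the human probes, in the xenograft values of the class I genes was not tested.

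**Figure D4:**
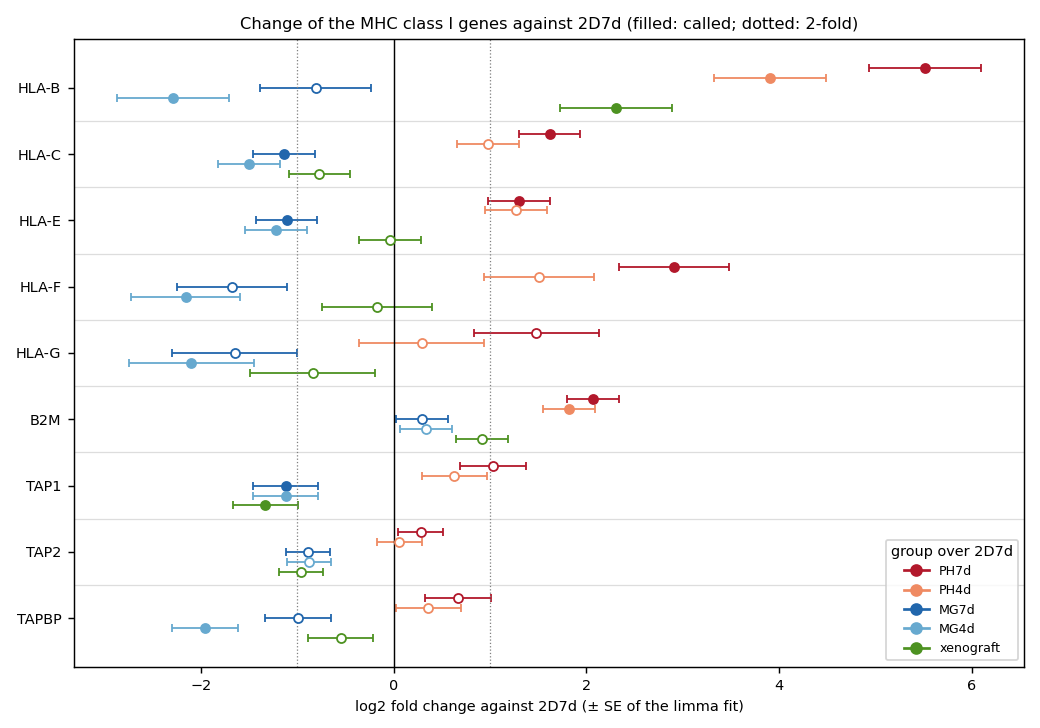
Log2 fold change of each member gene against 2D7d (± SE of the limma fit) in PH7d, PH4d, MG7d, MG4d and the xenografts, filled where called and with dotted lines at 2-fold. PH7d lies furthest right for each gene, up to 5.52 for HLA-B, and Matrigel lies left of 0 for all genes but B2M.

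The 5 comparisons with 2D7d share its 2 arrays. The comparison of polyHEMA with Matrigel on the same day does not use them. At 7 days all 9 members were called higher in PH7d than in MG7d, against 5.57% of all genes (3.84% lower), with a median log2 fold change of 2.41 (all genes -0.02). HLA-B differed 80.6-fold (6.33 ± 0.58, adjusted p = 0.000628), HLA-F 24.1-fold (4.59 ± 0.57, adjusted p = 0.00185) and HLA-G 8.80-fold (3.14 ± 0.65, adjusted p = 0.018). With the authors' processed values these log2 differences were 5.59, 3.91 and 1.47. HLA-G lay close to the lowest detected signal in MG7d, and its call was lost without either MG7d array or without PH7d replicate 2 (adjusted p of 0.0806 to 0.117). HLA-C (6.76-fold), HLA-E (5.32-fold), TAP1 (4.44-fold), B2M (3.41-fold), TAPBP (3.18-fold) and TAP2 (2.24-fold) followed. The lowest PH7d array was above the highest MG7d array for each member. The count was 5 without MG7d replicate 1 and 4 without MG7d replicate 2, where HLA-B, HLA-C, HLA-E and HLA-F stayed called. With 1 array left out, HLA-B ran from 5.93 to 6.73 and TAP2, the smallest difference, from 1.08 to 1.25. TAP2 was not called with the authors' processed values or with array weights. PECAM1 was also higher in PH7d than in MG7d (1.46 ± 0.31, adjusted p = 0.0191), and its part was not tested.

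At 4 days 8 of the 9 members were called higher in PH4d than in MG4d, against 8.33% of all genes (3.91% lower), with a median of 2.39 (all genes -0.03). HLA-B differed 73.5-fold (6.20 ± 0.58, adjusted p = 0.00062), HLA-F 12.7-fold (3.67 ± 0.57, adjusted p = 0.00399), TAPBP 5-fold (2.32 ± 0.34, adjusted p = 0.00326) and B2M 2.80-fold (1.49 ± 0.27, adjusted p = 0.00722). With the authors' processed values HLA-B gave 4.37 and HLA-F 2.76 on the log2 scale. Without PH4d replicate 1 they gave 7.10 and 4.75, and without replicate 2 they gave 5.30 and 2.59, all of them called. HLA-B was detected on 1 of the 2 MG4d arrays. HLA-G was higher in PH4d (adjusted p = 0.0408), with a bound of 3.81-fold that rests on PH4d replicate 2. Without that array HLA-G gave 1.18 on the log2 scale (adjusted p = 0.111), and its call was also lost without either MG4d array (0.133 and 0.232) and under 5 alternatives (down to 0.93 with the authors' processed values). TAP2 was 1.92-fold higher (0.94 ± 0.23, adjusted p = 0.03), under the 2-fold limit. Even the lower PH4d array, replicate 1 for all members but B2M, lay above both MG4d arrays for each member. The calls of B2M and TAP1 were lost without either MG4d array. With 1 array left out, B2M ran from 1.33 to 1.64 and TAP1 from 1.20 to 2.31. B2M was not called with array weights (adjusted p = 0.133). The JIMT1 markers ERBB2 (1.37 ± 0.23, adjusted p = 0.00544) and CDH1 (1.02 ± 0.29, adjusted p = 0.0492) and the endothelial marker PECAM1 (1.12 ± 0.31, adjusted p = 0.0433) were also higher in PH4d than in MG4d, and their part was not tested.

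Between days no member was called. The fit did not pair replicates, although the replicate differences of PH7d and PH4d correlated at 0.874 over 10970 genes. Among the 9 members, 3 were higher on replicate 2 in PH7d and 8 in PH4d. A paired test was not run. On polyHEMA, the 9 differences of PH7d minus PH4d ran between 0.04 for HLA-E and 1.61 for HLA-B (all with an adjusted p of 1), where limma called 0 of all genes (0.00%) and 125 had an unadjusted p under 0.05, 2 of them members. With polyHEMA replicate 1 alone, the members with the largest differences were HLA-B (2.92), HLA-F (2.42) and HLA-G (1.96), all higher on day 7. In that fit each day has 1 array and is assumed to vary like the other groups. With replicate 2 alone HLA-B, HLA-F and HLA-G gave 0.31, 0.38 and 0.42. In Matrigel, MG7d minus MG4d ran between -0.04 for B2M and 1.48 ± 0.58 for HLA-B (adjusted p = 0.318), and TAPBP gave 0.97 ± 0.34 (adjusted p = 0.267). Limma called 0 members, against 0.729% of all genes higher and 0.164% lower. Of the 10970 genes 1375 had an unadjusted p under 0.05, 2 of them members. The change from day 4 to day 7 was not shown to differ between polyHEMA and Matrigel for any member (interaction between -0.66 and 0.92, adjusted p of 1 for each).

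Set against the xenografts, 7 of the 9 members were called higher in PH7d, against 3.99% of all genes (3.35% lower), with a median of 2.33 (all genes 0.01). HLA-B differed 9.27-fold (3.21 ± 0.58, adjusted p = 0.0106), HLA-F 8.43-fold (3.08 ± 0.57, adjusted p = 0.012), HLA-C 5.23-fold (2.39 ± 0.32, adjusted p = 0.00231) and TAP1 5.14-fold (2.36 ± 0.34, adjusted p = 0.0032). HLA-E, TAP2 and B2M were called at 2.21-fold to 2.54-fold. HLA-G (2.33 ± 0.65, adjusted p = 0.0644) and TAPBP (1.22 ± 0.34, adjusted p = 0.064) did not pass. Of the members, only HLA-C and TAP1 stayed called without either xenograft array. With array weights HLA-E, B2M and TAP2 were not called. Among the markers of other cells, PECAM1 (1.89 ± 0.31, adjusted p = 0.0068) and CD14 (2.38 ± 0.52, adjusted p = 0.024) were higher in PH7d than in the xenografts, DCN was at least 4.21-fold and AIF1 at least 4.50-fold lower, and their part was not tested. Between MG7d and the xenografts only HLA-B was called, 8.70-fold lower in MG7d (-3.12 ± 0.58, adjusted p = 0.0136), against 3.32% of all genes lower and 2.44% higher, and it was lost without any 1 of those 4 arrays (adjusted p of 0.0773 to 0.138) and with the authors' processed values (-2.23, adjusted p = 0.0578). TAP1 and TAP2 differed by 0.21 ± 0.34 and 0.08 ± 0.23 there.

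The other steps of the pathway were read from lists chosen by function. The immunoproteasome list holds the catalytic subunits PSMB8, PSMB9 and PSMB10, which replace those of the standard proteasome, and the activator subunits PSME1 and PSME2. All 5 were called higher in PH7d than in MG7d (median 2.08), against 5.57% of all genes. The same held in PH4d against MG4d (median 2.02), where 8.33% of all genes were called higher. It also held in PH7d against the xenografts (median 2.09), where 3.99% were. PSMB9 had levels of 10.35 and 10.61 in PH7d, 9.21 and 10.84 in PH4d, 7.99 and 7.60 in MG7d, 7.90 and 7.57 in MG4d, 6.95 and 7.27 in the xenografts and 9.14 and 9.44 in 2D7d. As with TAP1, its neighbor in the genome, the xenografts were lowest and 2D7d lay between Matrigel and the upper polyHEMA arrays. Against 2D7d, PSMB9 was 2.82-fold lower in MG7d (-1.49 ± 0.46, adjusted p = 0.0462), 2.94-fold lower in MG4d (-1.56 ± 0.46, adjusted p = 0.0409) and 4.55-fold lower in the xenografts (-2.18 ± 0.46, adjusted p = 0.0152). PSMB8 was lower in the same 3 groups, at 2.54-fold to 2.96-fold. PSMB10 (2.76-fold, adjusted p = 0.0425) and PSME2 (2.12-fold, adjusted p = 0.0383) were higher in PH7d than in 2D7d, against 3.87% of all genes. In PH4d 0 of the 5 were called, where 2.58% of all genes were called higher and 1.84% lower.

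**Figure D5:**
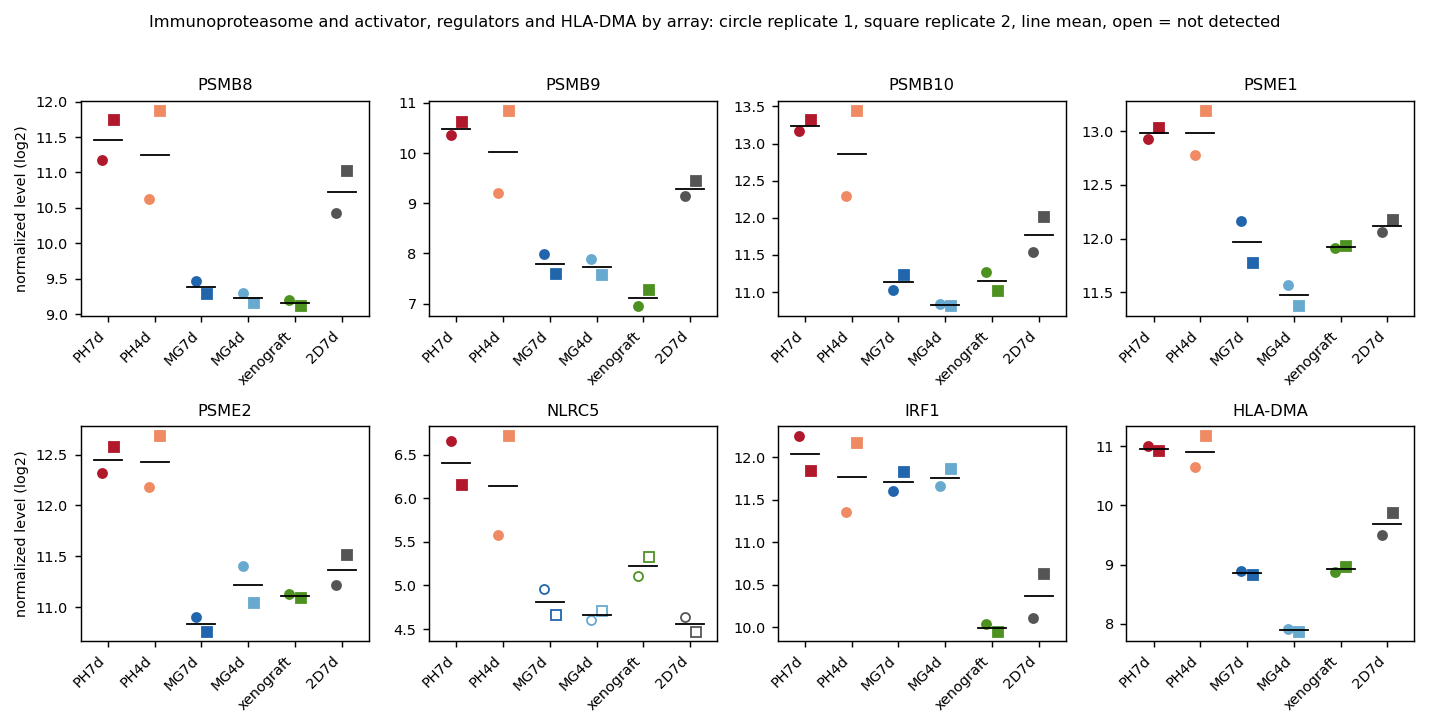
Normalized log2 level on each array, by group from PH7d to 2D7d, of the 5 immunoproteasome genes, the regulators NLRC5 and IRF1, and HLA-DMA, with circles for replicate 1, squares for replicate 2, lines for the mean and open symbols where not detected. PSMB9 runs from 10.84 in PH4d to 6.95 in a xenograft, IRF1 is lowest in the xenografts, and NLRC5 is detected on the 4 polyHEMA arrays alone.

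Of 13 regulators of class I transcription, 12 were measured. NLRC5, the transactivator that acts on class I promoters together with RFX factors, was named, like NFYA, after its values were seen. NLRC5 was detected on all 4 polyHEMA arrays, at levels of 6.65 and 6.15 in PH7d and 5.58 and 6.71 in PH4d, and on none of the other 8 arrays. It entered the test through polyHEMA alone. NLRC5 was at least 1.18-fold higher in PH7d than in 2D7d (adjusted p = 0.0181), a low bound against the lowest detected signal of 2D7d. In PH4d the bound was under 1 and no fold is given. IRF1, which binds interferon response elements, had levels of 12.25 and 11.84 in PH7d, 11.36 and 12.17 in PH4d, 11.60 and 11.83 in MG7d, 11.66 and 11.86 in MG4d, 10.04 and 9.95 in the xenografts and 10.11 and 10.63 in 2D7d. It was higher than in 2D7d in both polyHEMA and both Matrigel groups, by 2.55-fold to 3.19-fold (adjusted p of 0.0165 to 0.0427), and so did not follow the class I chains in Matrigel. RFXANK, a subunit of the RFX complex, was lower in MG7d (-1.76 ± 0.47, adjusted p = 0.0375), MG4d (-1.65 ± 0.47, adjusted p = 0.0384) and the xenografts (-1.85 ± 0.47, adjusted p = 0.0247) than in 2D7d. RFX5 (1.03 ± 0.26, adjusted p = 0.025) and CREB1 (2.10 ± 0.66, adjusted p = 0.0395) were higher in the xenografts, as was NFYA, by at least 2.36-fold (adjusted p = 0.0314). NFKB1 was called in none of the comparisons, with levels of 10.14 to 11.42.

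Of 6 genes of peptide editing and trimming, 5 were measured. CALR, the chaperone calreticulin of the loading complex, was lower than in 2D7d in MG7d (3.13-fold, adjusted p = 0.0319), MG4d (2.36-fold, adjusted p = 0.0461) and the xenografts (2.70-fold, adjusted p = 0.0284). ERAP2, an aminopeptidase that trims peptides in the endoplasmic reticulum, was 3.25-fold higher in the xenografts (1.70 ± 0.52, adjusted p = 0.0365). CANX and ERAP1 were called in none of the comparisons, and TAPBPL, a relative of tapasin, was at least 3.09-fold higher in PH7d than in MG7d (adjusted p = 0.047), but it was detected on both arrays of the polyHEMA groups alone and entered the test through them. Against 2D7d the median of the 5 was 0.25 in PH7d (all genes 0.05), 0.50 in PH4d (0.03), -0.05 in MG7d (-0.01), 0.45 in MG4d (-0.07) and 0.06 in the xenografts (0.01).

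Class II genes, which present peptides from outside the cell, were mostly not detected. Of 12 listed, 4 were measured, and CIITA and CD74 were not detected on any array. HLA-DMA, which exchanges peptides on class II molecules, had levels of 11 and 10.92 in PH7d, 10.65 and 11.17 in PH4d, 8.90 and 8.82 in MG7d, 7.91 and 7.87 in MG4d, 8.88 and 8.96 in the xenografts and 9.50 and 9.88 in 2D7d. Its order, with polyHEMA highest and MG4d lowest, was that of several class I chains. It was 2.42-fold higher in PH7d (adjusted p = 0.0171), 2.33-fold higher in PH4d (adjusted p = 0.0253) and 3.49-fold lower in MG4d (adjusted p = 0.0101) than in 2D7d. HLA-DRA, the class II alpha chain, was at least 2.18-fold higher in the xenografts (adjusted p = 0.0121), at least 1.96-fold higher in PH7d (adjusted p = 0.0268) and at least 1.68-fold higher in MG4d (adjusted p = 0.0304), since 2D7d did not detect it.

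Of 10 class I-like molecules, 7 were measured. MICA and MICB, stress-induced ligands of the natural killer receptor NKG2D, did not share the pattern of the class I chains. MICB had levels of 8.31 and 9.23 in PH7d, 7.88 and 9.21 in PH4d, 9.93 and 10.09 in MG7d, 9.92 and 9.87 in MG4d, 7.25 and 7.51 in the xenografts and 9.47 and 9.75 in 2D7d. It was highest in Matrigel, where the class I chains were lowest, and lower in the xenografts than in 2D7d (4.68-fold, adjusted p = 0.0124). MICA was 4.81-fold lower in the xenografts (adjusted p = 0.0136) and 2.89-fold lower in MG7d (adjusted p = 0.0445), and ULBP2, another NKG2D ligand, was 2.01-fold lower in the xenografts (adjusted p = 0.0473). MR1, which presents vitamin metabolites, went with the class I chains, 2.17-fold higher in PH7d (adjusted p = 0.0367) and 2.93-fold lower in MG4d (adjusted p = 0.0139) than in 2D7d.

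Across the 12 arrays the members varied together, with Pearson correlations of 0.562 (B2M with TAP2) to 0.970 (HLA-E with HLA-F). The 5 chains correlated at 0.847 to 0.970, TAP1 with TAP2 at 0.955, and B2M with HLA-B at 0.890 but with HLA-G at 0.617. The arrays are replicates of 6 groups, so these values describe mainly the group means. Outside the members and lists, the genes whose levels were most like those of HLA-B were HCP5 (0.994), SPRY1 (0.984) and PPP1R11 (0.983). HCP5, a noncoding gene of the MHC region, had levels of 11.25 and 10.96 in PH7d, 9.04 and 10.83 in PH4d, 6.30 and 6.24 in MG7d, 4.96 and 5.02 in MG4d, 9.12 and 8.77 in the xenografts and 6.17 and 6.99 in 2D7d. It repeated the order of the groups and the low PH4d replicate 1 seen for HLA-B. Most like B2M were IL1R1 (0.977), B4GALT5 (0.967) and ATP6V1E1 (0.966), and most like TAP1 were VRK3 (0.983), HSD17B1 (0.978) and ADIRF (0.978).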

How the data were processed

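Total RNA of JIMT1 cells and xenografts was hybridised by the authors to 1-colour Illumina HumanHT-12 v4 BeadChips, 2 arrays in each of 6 groups. The authors deposited a non-normalized intensity and a detection p-value for each probe and array, and a processed table on a log2-like scale that their methods describe as variance-stabilised and quantile-normalized by the lumi package, of unstated version. The log2 values deposited in the processed table were used as an alternative alone, because 38524 of its 47323 rows carry another probe ID. Its rows were matched to the intensities by rank.

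The intensities were background-corrected with normexp (offset 16, from the detection p-values), quantile-normalized and log2-transformed by the neqc function (limma 3.58.1, run under R 4.3.3). Probes detected at p under 0.01 by both replicates of 1 group or more were kept (18308). The platform annotation gave 1 symbol to 30113 of the 47323 probes, several to 8 and none to 17202, and the brightest of the 14562 kept probes with 1 symbol stood for each of 10970 genes. Values of other probes come from a fit over all kept probes. All 12 arrays entered 1 limma fit with a mean for each group (6 residual and 3.17 prior degrees of freedom), so the SE pools the spread over groups although the polyHEMA arrays lie further apart. 11 comparisons were tested with Benjamini-Hochberg adjustment over all genes. Precision is limited by the number of arrays. Where all arrays of a group failed detection, a fold is given as a bound against the lowest detected signal.

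Alternatives were the authors' processed values, no background correction, offset 50, median scaling, a detection p of 0.05, no detection filter, the mean of a gene's detected probes, array weights, replicate number as a block, each array left out in turn and, added after seeing the data, polyHEMA arrays of 1 replicate. The scripts were tested on simulated data. The members, the lists and the rule for the genes named (all members, and in each list the called among the 5 with the highest mean, the regulators further down being named after their values were seen) were chosen with earlier results of these data known. Correlations are Pearson's over 12 arrays.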

Additional observations from a re-analysis of the deposited data

How the results depend on the processing

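Under the alternatives that kept the 12 arrays, 8 or 9 members were called in PH7d against MG7d, 6 to 8 in PH4d against MG4d and 0 in PH7d against PH4d. Other member counts moved. With array weights the count was 3 in PH7d against 2D7d (main 5), 1 in PH4d against 2D7d (2), 5 in MG7d against 2D7d (3), 1 in MG7d against MG4d (0) and 3 in MG7d against the xenografts (1). Without a detection filter, which also raises the number of genes tested, it was 0 in MG7d and 3 in MG4d (7) against 2D7d. With the authors' processed values it was 4 in MG4d against 2D7d and 0 in MG7d against the xenografts, and with the mean of the detected probes it was 5 in MG7d and 4 in the xenografts (2) against 2D7d. Member counts with polyHEMA arrays of 1 replicate are left out, since the number of all genes called shifted in most comparisons too. The causes were not tested.

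With 1 array left out the counts ran from 2 to 5 in PH7d, 0 to 6 in PH4d and 0 to 0 in MG7d, MG4d and the xenografts against 2D7d, from 4 to 9 in PH7d against MG7d, 5 to 9 in PH4d against MG4d, 0 to 0 between days in either model, 2 to 6 in PH7d against the xenografts and 0 to 0 in MG7d against the xenografts. The group left with 1 array is then assumed to vary like the others.

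Directions turned only for differences that were not called. With the mean of the detected probes TAP2 gave -0.21 in PH7d and -0.58 in PH4d against 2D7d and -0.12 in MG7d against the xenografts, and B2M gave 0.01 in MG7d against MG4d. With median scaling TAP1 gave -0.06 and TAP2 0.06 in MG7d against MG4d. With polyHEMA replicate 1 alone HLA-G gave -0.92, TAP2 -0.11 and TAPBP -0.22 in PH4d against 2D7d, and with replicate 2 alone HLA-E gave -0.53, TAP1 -0.25 and TAPBP -0.13 in PH7d against PH4d. With 1 array left out the ranges that crossed 0 were, in PH4d against 2D7d, HLA-G from -0.92 to 1.51, TAP2 from -0.13 to 0.24 and TAPBP from -0.22 to 0.95, in the xenografts against 2D7d HLA-E from -0.12 to 0.04, in PH7d against PH4d HLA-E from -0.49 to 0.56, HLA-G from -0.03 to 2.40, TAP1 from -0.16 to 0.95 and TAPBP from -0.27 to 0.90, in MG7d against MG4d HLA-E from -0.01 to 0.23, B2M from -0.30 to 0.22, TAP1 from -0.03 to 0.03 and TAP2 from -0.09 to 0.08, and in MG7d against the xenografts TAP2 from -0.04 to 0.20.

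Over all genes, the main fit called 684 in PH7d, 485 in PH4d, 2320 in MG7d, 2386 in MG4d and 3412 in the xenografts against 2D7d, where the authors' processed values gave 339, 236, 856, 898 and 1397 and array weights 301, 116, 4464, 4333 and 4811 in the same order. Median scaling moved the median of all genes against 2D7d to 0.21 in PH7d, 0.16 in PH4d, 0.18 in MG7d, 0.05 in MG4d and 0.17 in the xenografts.

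Replicate numbers were given in accession order, and same-numbered arrays did not deviate together throughout. Their differences correlated at -0.116 to 0.874 over 15 pairs of groups, 8 of them over 0.1. The highest was that of PH7d with PH4d, so the polyHEMA replicates did deviate together over all genes. The replicate block gives all groups 1 common shift and does not pair the polyHEMA arrays alone. With the replicate block the member count was 3 in PH4d and 4 in MG7d against 2D7d and 9 in PH7d against the xenografts, and it was unchanged in the other 8 comparisons. HLA-G and NLRC5 lie near background, and their folds against undetected groups are bounds.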
